A study of Mus musculus with 6 samples.

Results

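Endothelial cells line the blood vessels of the kidney, and 10 genes that mark them or work in them were followed here: Nos3, Eng, Icam2, Emcn, Ramp2, Kdr, Flt1, Tek, Tie1 and Pecam1. They were taken by symbol, with every probe set whose platform annotation gave exactly 1 of these symbols, which gave 14 probe sets of the 12422 on the array. RNA was read with 6 Affymetrix arrays of 1 colour (MG_U74Av2), a chip that measures each transcript with 1 or more sets of short probes. The mutant group was 2 pools of whole metanephros (embryonic kidney) at E14.5 carrying the Wnt4tm1Amc allele. Each of these pools held 8 to 10 kidneys from 4 to 5 embryos, and the strain is labelled 129. The wild-type group was 4 pools of 2 kidneys each at the same stage, with the strain labelled CD-1. The protocol text speaks of CD-1 matings for both groups. Strain label, pool size and genotype cannot be told apart in this design. Wnt4 is a secreted signal that the design text describes as needed for the renal vesicle, from which the nephron's epithelium forms.

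Vessels of the embryonic kidney form from progenitors that respond to VEGF, which the receptors Kdr and Flt1 bind, and they are later stabilised by the angiopoietins, which act through Tek with Tie1 as its partner. Endoglin (Eng) assists TGF-beta and BMP signalling in endothelium, Nos3 makes the nitric oxide that relaxes vessels, and Ramp2 turns the receptor Calcrl into a receptor for adrenomedullin. Pecam1, Icam2 and Emcn are surface proteins through which endothelial cells hold to each other or meet leukocytes. In the developing glomerulus, podocytes release VEGF-A and so draw endothelial cells into the capillary tuft.

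Medians of the 6 arrays ran from 172.69 to 191.03 signal units. Log2 signals correlated at 0.969 between the mutant arrays, at 0.918 to 0.934 between mutant and wild type, and at 0.938 to 0.969 among wild-type arrays. Wild-type replicates 2 and 4 stood apart on the second principal component (21.7% of the variance), on opposite sides. Wnt4 read 74.2 and 34.5 in the mutant, against 829, 739, 946 and 699 in the wild type, a log2 difference of -3.59 (limma, adjusted p = 6.11e-05). Whether its probes lie in the part removed by the allele was not analysed here. Endothelial RNA was present in both groups. Cdh5, the cadherin of endothelial junctions, read 822 and 881 in the mutant and 832 to 968 in the wild type, and Kdr, Tek and Tie1 lay above the 40th percentile of signals on every array. The kidney list (17 genes, such as Six2 and Foxd1) had 14 of its 15 genes on the array kept by the filter. That filter needs only 2 arrays of any group, and Wnt4 passed it through wild-type arrays alone. Of the list's 16 tested probe sets, 4 were called lower (Wnt4, Pax8, Lhx1 and Cited1) and 1 higher (Foxd1). These make 25% and 6.25%, beside 6.11% and 4.65% of the array (limma).

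Genes with several probe sets are named with A for the brightest in the wild type, then B and C. Of the 13 probe sets tested, 4 fell in the mutant: those of Nos3, Eng and Icam2, and Emcn A. None passed the threshold upward (limma). At an unadjusted p under 0.05, 0 were higher and 6 lower, beside 981 higher and 1137 lower among the 7981 tested on the array. On the whole array 6.11% of 7981 tested probe sets were called lower and 4.65% higher (10.8% in all), while the 4 make 30.8% of those 13. The count was 1 without mutant replicate 1, where Nos3 alone passed. It was again 4 without a filter (beside 3.14% of 12422), and 3 of 11 tested without wild-type replicates 2 and 4 (Nos3, Eng and Emcn A; beside 6.44% of the array). The array filter kept 3 of the 13 (Nos3, Pecam1 and Emcn C) through wild-type arrays alone. Passing in this way favours probe sets that read lower in the mutant, so neither the 30.8% nor the count of 6 is read as support. Among the 10 probe sets above the 40th percentile on both mutant arrays, 3 fell, beside 5.73% of the 7046 such probe sets on the array. The median difference over all 14 without a filter was -0.34, beside 0.034 over all 12422. Over the 13 tested it was -0.38, the value of Emcn C, and it was -0.14 over the 9 that a filter at the 60th percentile left. The remaining genes were Ramp2, Kdr, Flt1, Tek, Tie1 and Pecam1, and no probe set of these passed. In whole-organ RNA, fewer endothelial cells and less RNA per cell cannot be told apart.

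Nos3, the endothelial nitric oxide synthase, showed the largest difference of the 14. Its signal was 46.7 and 41.8 in the mutant, against 152, 192, 196 and 217 in the wild type. The mutant arrays were far below every wild-type array, at 23.4% of the wild-type mean (44.3 ± 3.47, SD, n = 2, against 189 ± 27.3, SD, n = 4). The log2 difference was -1.76 ± 0.27 (SE; limma, adjusted p = 0.00431), with a 95% interval of -2.38 to -1.14. The mutant signals were below the 40th percentile of their arrays, so the size depends on the offset: -2.06 with an offset of 1 and -1.22 with 64. Nos3 passed under every one of the 15 alternatives that could test it.

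Eng, the TGF-beta co-receptor, was lower in both mutant arrays than in any wild-type array. It read 1546.5 and 1704 in the mutant, against 2379, 2423, 2335 and 2614 in the wild type. The difference was -0.58 ± 0.091 (SE; limma, adjusted p = 0.00431), 66.7% of the wild-type mean, with an interval of -0.79 to -0.37. It passed in 15 of 16 alternatives, and without mutant replicate 1 it was -0.51 (adjusted p = 0.0739).

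Icam2, an adhesion protein of endothelial junctions and platelets, had 352 and 319 in the mutant, against 483, 548, 484 and 493 in the wild type. The groups were separate, and the mutant mean was 66.8% of the wild-type mean. The difference was -0.56 ± 0.13 (SE; limma, adjusted p = 0.0260). This was the least stable of the 4 calls, passing in 10 of 16 alternatives. Its adjusted p was 0.103 without mutant replicate 1, 0.201 without mutant replicate 2, 0.0543 without wild-type replicate 1 and 0.0515 without wild-type replicate 3. Leaving out both wild-type replicates that stood apart gave 0.0591, and the replicate block 0.0848.

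**Figure D1:**
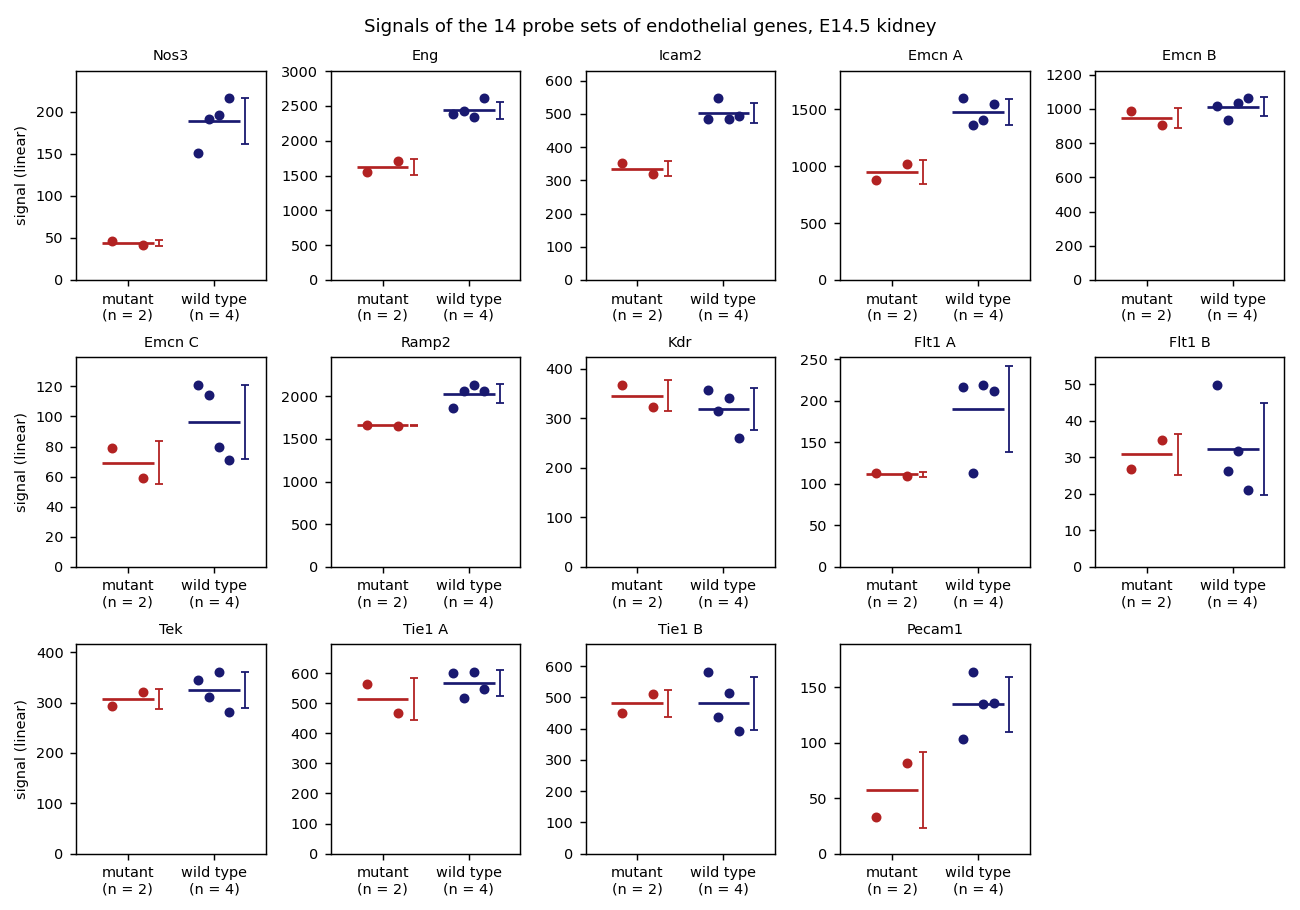
Linear signal of each of the 14 probe sets, with 1 point per array, mutant (n = 2) left and wild type (n = 4) right, the horizontal line at the mean and the bar at ± 1 SD; every vertical axis starts at 0. The mutant points lie below all wild-type points for Nos3, Eng, Icam2, Emcn A, Ramp2 and Pecam1, and the groups overlap in the other 8 panels.

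Emcn encodes endomucin, a sialomucin of capillary and venous endothelium, and its probe sets gave unlike answers. Emcn A read 875 and 1023 in the mutant, against 1601, 1362, 1406 and 1548 in the wild type, and fell by 0.63 on the log2 scale (SE 0.11; limma, adjusted p = 0.00809). Without mutant replicate 1 this was -0.52 (adjusted p = 0.107). Emcn B read 986 and 906 in the mutant, against 1019, 936, 1033 and 1065 in the wild type, and its groups overlapped. Its difference was -0.10 (adjusted p = 0.609), with an interval of -0.33 to 0.13 that does not reach the value of Emcn A. The dim Emcn C, designed on the same sequence record as Emcn A, gave 79.2 and 59.2 in the mutant and 121, 114, 79.5 and 71.0 in the wild type (-0.38, adjusted p = 0.576). The ratio of Emcn A to Emcn B within an array was lower in both mutant arrays than in any wild-type array, by 0.54 on the log2 scale. An exact two-sided permutation test of that ratio gave p = 0.133, the smallest these 6 arrays allow (adjusted p = 0.333 over 5 such pairs). Emcn therefore has no single value here, and which transcript part each probe set reads was not analysed here.

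Neither VEGF receptor passed the test. Kdr (VEGFR2), which carries most of the growth signal of VEGF-A, read 368 and 323 in the mutant, against 357, 315, 341 and 260 in the wild type. The groups overlapped, with a difference of 0.12 ± 0.17 (SE; limma, adjusted p = 0.711) and an interval of -0.26 to 0.50. Without wild-type replicates 2 and 4 the difference was -0.017. Flt1 (VEGFR1), which binds VEGF-A tightly and limits how much reaches Kdr, read 113 and 109 in the mutant at Flt1 A, against 216, 112, 219 and 212 in the wild type. Wild-type replicate 2 thus lay with the mutant arrays, while the other three wild-type arrays were nearly equal. The difference was -0.65 ± 0.30 (SE; limma, adjusted p = 0.209). Leaving out wild-type replicate 2 gave -0.87 (adjusted p = 0.0424), and leaving out replicate 4 as well gave -0.88 (adjusted p = 0.0592). Flt1 B read 26.9 and 34.8 in the mutant and 49.9, 26.2, 31.7 and 20.9 in the wild type. It lay below the filter on all 6 arrays and was the 1 probe set left untested.

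The angiopoietin receptors did not pass. Tek (Tie2) read 293 and 320 in the mutant, against 344, 311, 361 and 281 in the wild type, and both mutant values fell inside the wild-type range (-0.07 ± 0.16, SE; limma, adjusted p = 0.815). Tie1, which modifies Tek signalling, read 564 and 466 in the mutant at Tie1 A, against 601, 517, 605 and 548 in the wild type (-0.14, adjusted p = 0.559). At Tie1 B it read 450 and 511 in the mutant, against 582, 435.6, 514 and 391.9 in the wild type (0.01, adjusted p = 0.974). The direction at Tie1 B turned with the processing, running from -0.18 to 0.11. The intervals of these 3 probe sets reach from -0.44 to 0.40, so a fall of the size measured for Eng or Icam2 lies outside all 3. This takes those falls as exact, while the interval of Icam2 ran from -0.85 to -0.27 and overlaps them. Whether Tek or Tie1 differs from Eng or Icam2 was not tested.

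Ramp2 and Pecam1 lay between these patterns. Ramp2, the partner of the adrenomedullin receptor, read 1661 and 1654 in the mutant, against 1865, 2064, 2134 and 2058 in the wild type. Its groups did not overlap, but the difference of -0.29 ± 0.090 (SE; limma) missed the threshold with an adjusted p of 0.0769, and it passed in 1 of 16 alternatives, array weights (adjusted p = 0.0432). Pecam1 (CD31), the junction molecule used most widely to stain vessels, read 33.2 and 81.5 in the mutant, against 104, 164, 135 and 136 in the wild type. Again no values overlapped, yet the mutant arrays were far apart and the difference of -1.11 ± 0.38 (SE; limma) had an adjusted p of 0.0976. That difference was -0.61 without mutant replicate 1 and -1.60 without mutant replicate 2. Counting these with the 4 that fell, no mutant array reached the lowest wild-type array for 6 of the 13 probe sets (46.2%), beside 18.8% of the array. Nos3 and Pecam1 among these passed the filter through wild-type arrays alone, so this share is not read as support. Of the 10 probe sets above the 40th percentile on both mutant arrays it was 4 (Eng, Icam2, Emcn A and Ramp2), beside 18.3% of such probe sets.

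**Figure D2:**
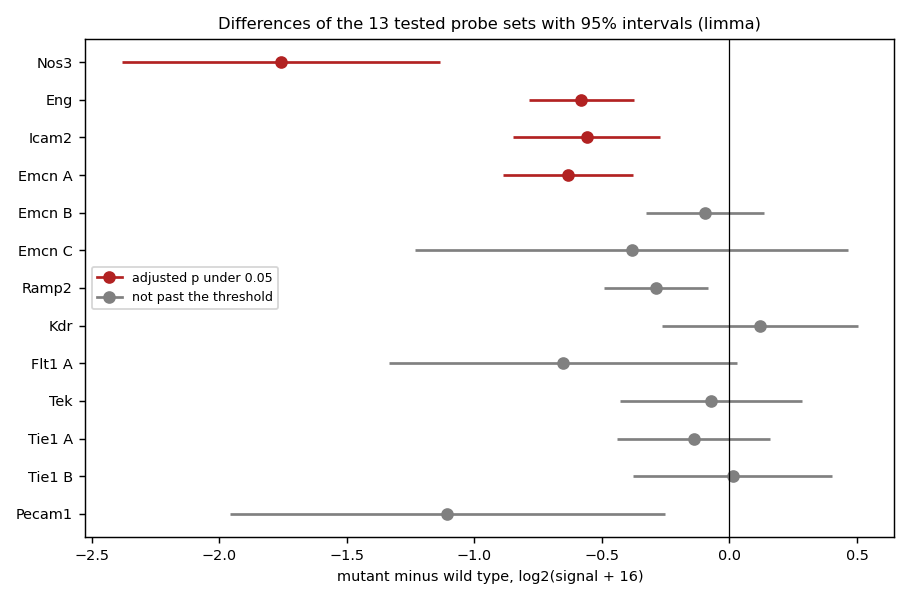
Log2 difference, mutant minus wild type, of the 13 tested probe sets (points) with 95% intervals (lines), red where the adjusted p was under 0.05. Nos3 lies furthest left at -1.76, Eng, Icam2 and Emcn A lie between -0.56 and -0.63, and the intervals of Kdr, Tek and both Tie1 probe sets cross 0.

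Set against Kdr on the same array, 10 of 12 other tested probe sets were lower in both mutant arrays than in any wild-type array. The share of the array set against Kdr in the same way was 20.6%. Nos3, Pecam1 and Emcn C passed the filter through wild-type arrays alone, so the 10 of 12 is not read as support. These ratios used log2(signal + 16), so a scaling shared by all genes does not fully cancel for dim probe sets. Whether Kdr follows the amount of endothelial RNA was not tested. Of the 10, Emcn B, Emcn C, Flt1 A and Tie1 A overlapped on their own signal and separated only relative to Kdr. Nos3 relative to Kdr was lower by 1.88 on the log2 scale, with values of -2.61 and -2.55 in the mutant and -1.15 to -0.25 in the wild type. Eng relative to Kdr differed by -0.70, Icam2 by -0.68, Flt1 A by -0.77 and Ramp2 by -0.41. Tek (-0.19) and Tie1 B (-0.11) overlapped. Each of the 10 had p = 0.133 in an exact two-sided permutation test, the smallest possible here, and 0.173 after adjustment over 13, Flt1 B included. Kdr was picked for this with its values known, and since it read somewhat higher in the mutant this makes each of these differences lower by 0.12. The ratios show unequal readings within an array and not which gene changed.

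RefSeq promoter windows (build GRCm38.p6, 250 bases before to 50 after the annotated start) were at hand for 6 of the 10 genes, namely Eng, Emcn, Kdr, Flt1, Tek and Tie1. The windows of Eng and Emcn, which fell (Emcn at 1 of 3 probe sets), and of Kdr and Flt1, which did not pass, are printed to show how unlike they are. Capitals mark matches, on either strand, to the ETS motif CAGGAAG, the ETS core CCGGAA, the KLF box CACCC or the TATA box TATAAA, none of which overlap another kind. ETS, GATA and KLF proteins are transcription factor families known for their part in endothelial genes. The windows lie at chr2:32646345-32646644 (plus strand, Eng), chr3:137340828-137341127 (plus strand, Emcn), chr5:75978406-75978705 (minus strand, Kdr) and chr5:147725962-147726261 (minus strand, Flt1), each written 5′ to 3′ along the gene.
Eng: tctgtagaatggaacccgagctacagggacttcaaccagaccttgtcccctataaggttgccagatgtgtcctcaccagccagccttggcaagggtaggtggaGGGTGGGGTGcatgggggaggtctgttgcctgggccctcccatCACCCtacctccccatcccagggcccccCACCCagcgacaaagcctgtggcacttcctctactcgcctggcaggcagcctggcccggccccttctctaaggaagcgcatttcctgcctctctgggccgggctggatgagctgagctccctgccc
Emcn: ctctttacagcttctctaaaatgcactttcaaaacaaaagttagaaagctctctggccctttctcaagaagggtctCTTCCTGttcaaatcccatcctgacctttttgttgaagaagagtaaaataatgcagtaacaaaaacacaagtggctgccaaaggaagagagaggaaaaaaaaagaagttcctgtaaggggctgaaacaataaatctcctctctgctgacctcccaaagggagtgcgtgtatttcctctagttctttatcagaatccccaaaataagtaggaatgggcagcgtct
Kdr: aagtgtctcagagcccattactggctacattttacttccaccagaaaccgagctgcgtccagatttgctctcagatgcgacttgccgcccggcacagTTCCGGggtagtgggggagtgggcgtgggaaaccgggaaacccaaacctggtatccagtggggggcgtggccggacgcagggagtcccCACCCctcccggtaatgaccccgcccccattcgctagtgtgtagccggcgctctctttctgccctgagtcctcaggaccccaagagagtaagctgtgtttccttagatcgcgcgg
Flt1: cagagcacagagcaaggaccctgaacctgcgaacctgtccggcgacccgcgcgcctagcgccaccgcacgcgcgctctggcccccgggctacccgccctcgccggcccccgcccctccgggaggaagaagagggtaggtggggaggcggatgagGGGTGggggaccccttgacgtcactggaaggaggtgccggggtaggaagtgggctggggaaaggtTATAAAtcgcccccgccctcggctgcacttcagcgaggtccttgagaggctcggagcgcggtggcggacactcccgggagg

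The Eng window held 4 KLF boxes, at 147, 142, 104 and 76 bases before the start. It held neither the ETS motif nor the ETS core as written above. Only these exact letters were searched, and the shorter GGAA, which occurs in each printed window, was not counted. The Emcn window held 1 ETS motif on the minus strand, 174 bases before the start. Kdr held 1 ETS core on the minus strand at 153 bases and 1 KLF box at 65 bases before the start, and Flt1 a TATA box at 31 bases and a KLF box at 96. The GATA motif AGATAA was found in the Tek window alone. The ETS motif and the ETS core were each in 1 of the 6 windows, beside 13.3% and 14.9% of all 32851 windows, and the KLF box in 5 of 6, beside 57.5%. The base composition was as varied, with 41.0% G and C in Emcn, 63.3% in Eng, 60.7% in Kdr and 70.7% in Flt1. The matches describe these letters and nothing about what binds there.

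The ligands and partners of these receptors moved in both directions. In a list of 57 genes of VEGF, angiopoietin, TGF-beta, adrenomedullin and nitric oxide signalling, 42 probe sets of 36 genes were tested, of which 5 fell, 5 rose and 32 did not pass (11.9% each way, beside 6.11% and 4.65% of the array). The list's median was 0.14, beside 0.020 for the array. Without a filter 2 of 62 fell and 3 rose, beside 3.14% and 2.46% of the array, so the share that fell was then near that of the array. A filter at the 60th percentile gave 2 and 2 of 22, and the replicate block 2 and 3 of 42. Median centring gave 5 and 3. Leaving out wild-type replicates 2 and 4 gave 3 and 6. With single replicates left out, 2 to 4 fell and 1 to 5 rose, fewest without mutant replicate 2 (2 and 1), without mutant replicate 1 (2 and 2) and without wild-type replicate 1 (2 and 3); without wild-type replicate 3 they were 3 and 4 and without replicate 4 they were 3 and 5.

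Vegfa, the main ligand of Kdr and Flt1, read 169 and 118 in the mutant, against 308, 257, 233 and 292 in the wild type. The groups were separate, with a fall of 0.87 (limma, adjusted p = 0.0338), a call kept in 8 of 15 alternatives. Angpt2, an endothelial ligand that opposes or replaces Angpt1 at Tek, fell by 0.82 (114 ± 3.60, SD, n = 2, against 215 ± 26.9, SD, n = 4; adjusted p = 0.0430), kept in 8 of 15. Angpt1, the activating ligand of Tek made by perivascular cells, read 91.5 and 82.3 in the mutant, against 149, 96.9, 181 and 144 in the wild type (-0.60, adjusted p = 0.258). Vegfa and Angpt2 both lost their call without mutant replicate 1, without mutant replicate 2 and without wild-type replicate 1 or 4. Angpt2 lost it without wild-type replicate 3 too, and Vegfa without wild-type replicates 2 and 4. Both also lost it without a filter and with the replicate block.

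Of the other VEGF family ligands only Vegfc passed the test. This ligand of the lymphatic receptor Flt4 read 241 and 328 in the mutant, against 129, 106, 152 and 174 in the wild type, a rise of 0.95 (limma, adjusted p = 0.0461) that was kept in 5 of 15 alternatives. It was lost with quantile normalization, median centring, no variance trend, no filter and the replicate block, without either mutant replicate and without wild-type replicate 1, 2 or 3. Pgf, a ligand of Flt1, read 266 and 259 in the mutant and 137 to 179 in the wild type (0.63, adjusted p = 0.0786). Vegfd, named after its values were seen, had 0.83 (adjusted p = 0.132). Vegfb, also a ligand of Flt1, read 898 and 814 in the mutant and 818 to 924 in the wild type (-0.03, adjusted p = 0.910). The co-receptor Nrp1 had 0.62 and 0.46 at its probe sets (adjusted p = 0.119 and 0.254), and Flt4 had 0.19 (adjusted p = 0.507).

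Of the TGF-beta ligands, 1 fell and 2 rose. Tgfb1 fell by 2.32 (38.5 and 55.8 in the mutant, against 403, 267, 366 and 196 in the wild type; limma, adjusted p = 0.00185). It passed the filter through wild-type arrays alone and was dim in the mutant, so its size depends on the offset (-2.65 with 1, -1.71 with 64). Tgfb3 rose by 1.61 (1762 ± 56.3, SD, n = 2, against 571 ± 92.5, SD, n = 4; adjusted p = 3.46e-04), and both calls held in all 16 alternatives. Tgfb2 rose by 1.24 (adjusted p = 0.0155), a call lost without mutant replicate 2. Acvrl1, the endothelial receptor that Eng assists, had -0.02, 0.02 and 0.13 at its 3 probe sets (adjusted p = 0.960, 0.967 and 0.617). The kinase Src rose by 1.30 and the adaptor Shc1 by 0.50 at 1 of 2 probe sets (adjusted p = 0.0239 and 0.0385). The membrane linker Ezr and the arginase Arg2 fell by 0.72 and 0.86 (adjusted p = 0.00225 and 0.0279). Src kept its call in 12 of 15 alternatives, Shc1 in 8 of 16, Arg2 in 7 of 15 and Ezr in all 16. All but Ezr lost it with the replicate block, Shc1 and Arg2 also without a filter, and Shc1 with median centring and with no variance trend. The calls of Src, Shc1 and Arg2 were lost without either mutant replicate, those of Shc1 and Arg2 also without wild-type replicate 1 or 3, and that of Arg2 without wild-type replicate 2 and without replicates 2 and 4 together. Calcrl, the receptor that Ramp2 serves, was below the filter, with 71.7 and 78.3 in the mutant and 20.9 to 54.0 in the wild type. Its other partners Ramp1 and Ramp3, named after their values were seen, had 0.31 and 1.08 (adjusted p = 0.468 and 0.0972).

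**Figure D3:**
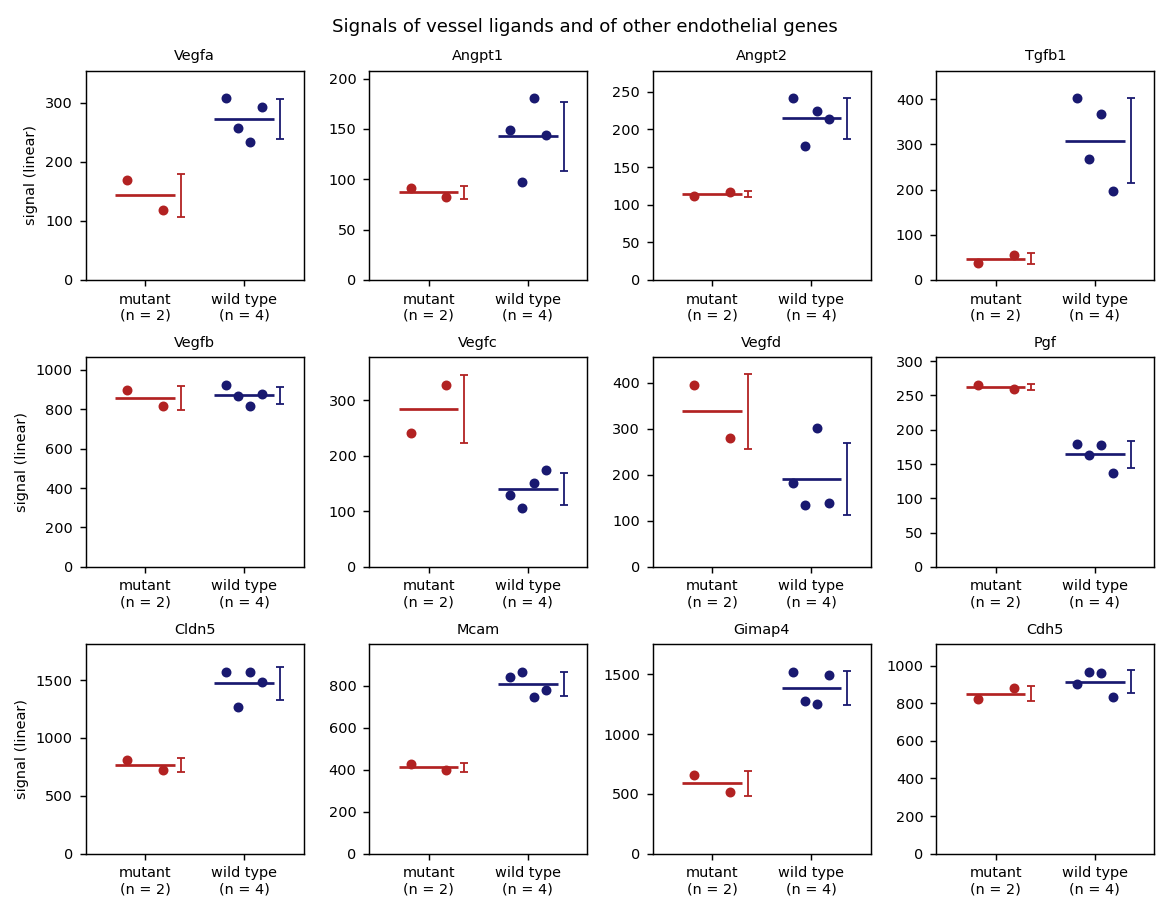
Linear signal of vessel ligands (upper 2 rows) and of other endothelial genes (bottom row), drawn with 1 point per array, mutant (n = 2) left and wild type (n = 4) right, the line at the mean and the bar at ± 1 SD. Vegfa, Angpt1, Angpt2, Tgfb1, Cldn5, Mcam and Gimap4 lie lower in both mutant arrays than in any wild-type array, Vegfc and Pgf lie higher, and Vegfb, Vegfd and Cdh5 overlap.

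A wider list of 68 other endothelial genes gave a smaller share of falls. Of 40 probe sets tested for 32 genes, 4 fell (10.0%, beside 6.11% of the array), none passed upward (limma) and 36 missed the threshold. At an unadjusted p under 0.05, 8 were lower and 2 higher, beside 1137 lower and 981 higher among the 7981 tested on the array. The list's median was -0.02, near the 0.020 of the array, and it turned to 0.065 without wild-type replicate 3. The count was again 4 when replicates 2 and 4 of the wild type were left out. Gimap4, a GTPase of lymphocytes and endothelium, fell by 1.22 (662 and 514 in the mutant, against 1523, 1278, 1256 and 1494 in the wild type; limma, adjusted p = 7.50e-04). Mcam (CD146), an adhesion molecule of vessels that is also made by pericytes, fell by 0.94 (428 and 397 in the mutant, against 843, 867, 745 and 780 in the wild type; adjusted p = 0.00118). Cldn5, the claudin of endothelial tight junctions, fell by 0.93 (807 and 724 in the mutant, against 1568, 1267, 1572 and 1479 in the wild type; adjusted p = 0.00148). These 3 calls held in all 16 alternatives, and podocytes of the mouse also make Cldn5. Vcam1 fell by 0.61 at 1 probe set (adjusted p = 0.0319, lost without a filter, with the replicate block, without either mutant replicate and without wild-type replicate 1 or 3) and had -0.08 at another (adjusted p = 0.875). Cdh5 had -0.10 (adjusted p = 0.615), the caveolin Cav1 0.04 (adjusted p = 0.871), and the progenitor marker Cd34 0.45 and 0.26 (adjusted p = 0.0942 and 0.231). Ptprb, a phosphatase that acts on Tek, lay near the bottom of the signal range, with 5.43 and 5.81 in the mutant and 5.77 to 17.1 in the wild type. Among genes named after their values were seen, the clotting protein Vwf lay below the filter at both probe sets, and the brighter one read 25.5 and 13.8 in the mutant and 69.2 to 98.3 in the wild type.

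Cells that border on vessels or share these markers were checked on the same arrays. Of 10 tested probe sets in a list for mural cells, the pericytes and smooth muscle around vessels, 2 fell, 1 rose and 7 did not pass. The list also holds Pdgfb, the ligand of the receptor Pdgfrb (-0.08, limma, adjusted p = 0.869), whose source cells were not tested. These make 20% lower and 10% higher, beside 6.11% and 4.65% of the array. Summed signals were 4669 and 4934 in the mutant and 4824 to 5887 in the wild type. The actin-binding Tagln of smooth muscle fell by 1.32 and the peptidase Anpep by 0.69, while the receptor Notch3 rose by 0.66 (limma, adjusted p = 6.61e-04, 0.0352 and 0.0178). Whether the Anpep RNA came from mural cells was not tested. The calls of Anpep and Notch3 were both lost without mutant replicate 2. Anpep also missed without a filter, with no variance trend, without wild-type replicate 1 or 2 and with replicates 2 and 4 left out, and Notch3 without mutant replicate 1. Pdgfrb, the pericyte receptor, had -0.68 (adjusted p = 0.0713), and -0.81 without wild-type replicate 2 (adjusted p = 0.0242).

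Platelets carry Pecam1 and Icam2, and macrophages carry Pecam1. Of the platelet list's 8 genes on the array 2 were tested, F2r and Nfe2. No probe set of 4 passed, also not at an unadjusted p under 0.05 (limma). The list's summed signal was 5033 and 5037 in the mutant and 4940 to 5776 in the wild type, most of it from F2r. F2r is not particular to platelets, and its source cells were not tested, so these counts say little about platelets. The defining platelet gene Pf4 read 57.3 on average in the mutant and 35.7 in the wild type, below the filter. In the macrophage and leukocyte list 1 of 15 probe sets rose and 14 did not pass, and its summed signal was higher in the mutant, 3730 and 4446 against 3040 to 3270. A list of 23 glomerular genes, of podocytes and the cells around them and with Vegfa included, had 3 of 15 probe sets lower and 2 higher. Its sum was 35044.5 and 35519 in the mutant against 26351 to 31499 in the wild type, most of it from Cdkn1c, which other kidney cells make too (17842 against 14031, adjusted p = 0.0890; named after its values were seen). Ptpro, a phosphatase of podocytes, fell by 2.76, and Npnt, a matrix protein that podocytes and other epithelia make, fell by 1.38 (limma, adjusted p = 0.00331 and 5.93e-04), and both held in all 16 alternatives. Ptpro passed the filter through wild-type arrays alone. The 2 that rose were probe sets of Pdgfra (1.06, limma, adjusted p = 7.52e-04) and Actn4 (0.52, adjusted p = 0.0407). Another Pdgfra probe set had 0.35 (adjusted p = 0.779). The median of the glomerular list was 0.13, beside 0.020 for the array. In the red blood cell list 4 of 10 probe sets rose, all of embryonic globins, and 6 did not pass, with a sum of 46825 and 48580 in the mutant against 24821 to 34062 in the wild type. Skeletal muscle genes rose at 8 of 19 probe sets, with a sum of 9514 and 10123 in the mutant against 3007 to 3831 in the wild type. On the whole array 6.11% of tested probe sets were called lower and 4.65% higher. Leaving out either mutant replicate gave 4 for muscle and 0 for macrophages, where leaving out wild-type replicate 2 gave 2. The glomerular counts were 2 and 1 without either mutant replicate, 3 and 1 without wild-type replicate 2 and 2 and 2 without replicate 1, and 1 platelet probe set was lower without wild-type replicate 4. The part of these cells in the endothelial differences was not tested.

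**Figure D4:**
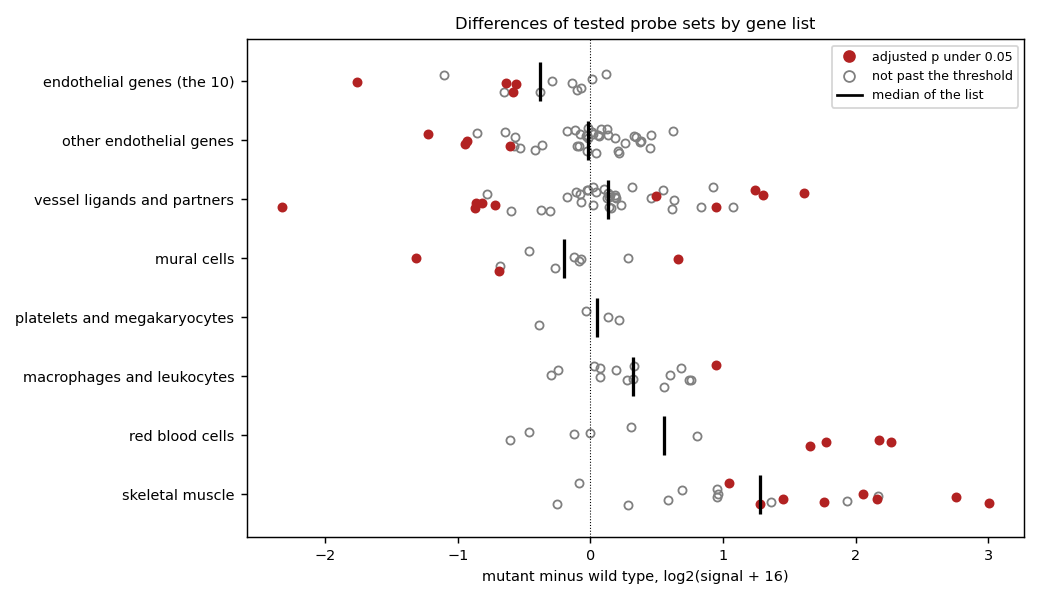
Log2 difference, mutant minus wild type, of each tested probe set in 8 gene lists, filled red where the adjusted p was under 0.05, with the list's median as a black bar. The 13 endothelial probe sets have a median of -0.38 (-0.14 for the 9 above a 60th-percentile filter) and the other endothelial genes -0.02, while red blood cell and skeletal muscle genes extend to the right.

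Within groups, the array-to-array deviations of the endothelial genes ran in both directions. After each value had its group mean removed, the 78 pairs among the 13 tested probe sets had correlations over 6 arrays from -0.92 to 0.89 with a median of -0.11, and 34 of the 78 were above 0. The closest pairs were Tek with Tie1 B (r = 0.89), Nos3 with Ramp2 (0.84) and Emcn B with Flt1 A (0.81), while Eng and Kdr were opposed (-0.92). All points share the same 6 arrays and their scaling. The mean of the 13 was 0.036 and 0.037 above its group mean in wild-type replicates 1 and 3 and as far below it in replicates 2 and 4, and the third principal component (14.1% of the variance) set the same pairs of arrays against each other. The genes outside the list whose deviations followed this mean most closely were AU020206, Hebp1, Tbl1xr1, Prkcd and Msrb1 (r = 0.99 to 1.00 over 6 arrays), and 186 tested probe sets exceeded 0.9.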

How the data were processed

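The deposited values are linear intensity per probe set. The submitters' processing notes name GCOS, Affymetrix software, as what the authors used, and the sources used here give no version or settings. Trimmed of 2% at each end, the mean signal was 500.27 to 500.29 on every array, so scaling had been done. Per the labels, amplification took 1 round and the label was biotin. Of 12422 probe sets other than 66 controls, 10833 had 1 symbol, and 10817 of these were updated by gene identifier to RefSeq (GRCm38.p6).

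Probe sets were kept when above the 40th percentile of their array on at least 2 arrays (7981 kept, 4441 dropped). Log2(signal + 16) was fitted with limma 3.58.1 (R 4.3.3; lmFit, eBayes with a variance trend, no covariate, two-sided), adjusting p-values by Benjamini-Hochberg over the 7981 kept, with a threshold of 0.05. Each difference is the mutant mean less the wild-type mean of these log2 values, and understates changes of dim genes. Alternatives changed the offset, filter, scaling, variance model, weights, replicate block and samples. No 2 arrays shared more than 0.0400% of values. The labels do not give the embryos behind a wild-type pool, so p-values measure the spread between these pools. The number of arrays limits the precision. The 10 genes, the gene lists and the rule for named genes (all probe sets of the 10, up to 12 called probe sets per list, 18 fixed genes and the 5 most alike) were chosen with earlier results of these data known. Lists are described without a test. Exact permutation tests (scipy 1.17.1) took all 15 splits of the arrays. Levels of different genes were not compared.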

Additional observations from a re-analysis of the deposited data

Results flagged for a closer look

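In 2 of the 14 probe sets, 1 wild-type array lay far from the other three by Dixon's test at the 95% level, which chance alone gives for about 5% of groups tested, and both times it was replicate 2. For Flt1 A, the brighter of the Flt1 probe sets, this array read 112.41, against 211.55 to 219.13 on the others, a gap of 0.929 of the group's range. For Icam2 it read 547.95, against 483.34 to 492.82, a gap of 0.853 of the range. Without that array Flt1 had -0.87 (limma, adjusted p = 0.0424) and Icam2 -0.52 (adjusted p = 0.0478).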

How the results depend on the processing

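Over the alternatives, the differences of Nos3, Eng, Icam2 and Emcn A stayed negative. The number of endothelial probe sets called lower was 4 in the analysis reported, 3 with the replicate block (Icam2 lost), 5 with array weights, and 1 to 5 when single replicates were left out; the 1 came without mutant replicate 1 and was Nos3. No alternative called an endothelial probe set higher (limma). On the whole array, 488 were called lower and 371 higher; with array weights these were 738 and 613, and with single replicates left out 188 to 553 and 114 to 448. Replicates 1 and 2 share only a number between groups (correlations of deviations 0.003 and -0.015); the replicate block gave 362 lower and 341 higher. Signs near 0 turned as follows. Kdr had -0.017 without wild-type replicates 2 and 4. Tie1 B had -0.0056 with quantile normalization, -0.023 with median centring, -0.055 with array weights, -0.068 with the replicate block and -0.18 without wild-type replicates 2 and 4. One Acvrl1 probe set had 0.074 with the block, and another had -0.031, -0.015, -0.054 and -0.044 with quantile normalization, median centring, array weights and the block, and -0.16 without wild-type replicates 2 and 4. With single replicates left out, Tie1 B ran from -0.077 to 0.11, these Acvrl1 probe sets from -0.13 to 0.092 and from -0.14 to 0.19, Vegfb from -0.095 to 0.044, Cav1 from -0.082 to 0.17, and the second Vcam1 probe set from -0.21 to 0.053. For all of these the cause was not tested. A filter at the 60th percentile left Nos3, Pecam1, Flt1 A and Emcn C untested. Leaving out wild-type replicates 2 and 4 was chosen after seeing the data. Leaving out 1 mutant replicate leaves 1, which is then assumed to vary like the wild type. Nos3, Pecam1, Emcn C and Flt1 B were dim in the mutant, where signal over background limits the size of a difference.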
